A study of Mus musculus with 15 samples.

Results

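The genes described here are 37 enzymes, transporters and accessory proteins of fatty acid oxidation in mitochondria and peroxisomes, taken from a list by symbol out of the 23420 symbols in the count files. All 37 passed the filter on low counts, so every one was tested. By the usual site of the protein, 12 were counted as peroxisomal, 18 as mitochondrial and 7 as working at several sites or elsewhere. The RNA came from ileal organoids, 3-dimensional cultures grown from intestinal crypts of C57BL/6 mice, at passage 2. They were split on day 10 of culture and on day 14 were broken open by pipetting, so that the lumen was exposed. For the next 24 hours they lay in DMEM with 0.2% BSA that held either vehicle or one of 4 designed mixtures of bile acids. H10 and H90 are the mixtures modelled on the human, with 10% or 90% of the bile acids carrying a 12α-hydroxyl group, and M10 and M90 are the counterparts modelled on the mouse. Vehicle and each mixture have 3 libraries, named a, b and c, and the labels name no mutation or transgene. The dose and the single bile acids of each mixture were not given in the sources used here, and separate mice or cultures for the 3 libraries of a group are not stated, so p-values measure the spread between these libraries, which may be technical.

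Fatty acids are broken down by beta-oxidation, in which each round oxidises, hydrates, oxidises again and then cleaves the acyl-CoA chain. Mitochondria take in long chains through the carnitine shuttle and carry the reaction to completion, feeding the respiratory chain and ketone synthesis. Peroxisomes shorten very long and branched chains, and some of the same peroxisomal enzymes cut the side chain of bile acid precursors. Many genes of both routes are known targets of the nuclear receptor PPARα, for which fatty acids serve as ligands. In the small intestine the enzymes are most abundant in the absorptive cells of the villus.

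Total counts ran from 11245807 to 28989526 per library. The epithelial markers Epcam, Vil1, Cdh1, Krt8, Krt19, Cdx1 and Cdx2 summed to 12014 to 16412 CPM (counts scaled to a common library total) in every library, while 7 adipocyte markers summed to at most 0.471 CPM, with Adipoq, Lep, Retn and Cfd at 0 in each library, and 5 immune markers to at most 3.56 CPM. The libraries fell into a pair of sets that the labels do not name. In 7 libraries (vehicle, H10 and H90 a) the liver transcript Mup20 stood at 23.0 to 35.9 CPM, and in the remaining 8 (all of M10 and M90 with H90 b and c) at 0.356 to 0.583 CPM. M90 against M10 lies inside one set, whereas M10 against H10 has one set on each side and is linked only through H90. M10 and M90 also lie wholly in the set that vehicle does not. Results against vehicle are given with and without a term for this set where the term changed a call.

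In each of the 4 mixtures most of the 37 genes were higher than in vehicle. In H10, 31 rose and none fell, with a median log2 fold change of 0.70 over the 37, where 24.0% of all 13159 tested genes rose and 24.5% fell. In H90, 29 rose and none fell, with a median of 0.53, where 11.7% of all tested genes rose and 9.86% fell. In M10, 31 rose and 3 fell, with a median of 0.82, where 31.2% of all tested genes rose and 33.3% fell. In M90, 36 rose and none fell, with a median of 1.01, where 26.2% of all tested genes rose and 28.5% fell. The median over all tested genes lay between -0.028 and -0.0040 in these 4 comparisons. A gene counts as risen or fallen where edgeR's quasi-likelihood test passed the threshold of 0.05 on a Benjamini-Hochberg adjusted p that spans all 13159 genes. The 4 comparisons share the vehicle libraries and so are not independent of each other. In bulk RNA a change in the number of cells of a type and a change in RNA per cell cannot be told apart. The share of all counts that fell on the 37 genes was 0.647% to 0.650% in vehicle, 0.938% to 1.002% in H10, 0.873% to 0.911% in H90, then 0.981% to 1.05% in M10 and 1.14% to 1.28% in M90. With a term for library set, 31 genes were called in H10, 25 in H90, then 29 in M10 and 32 in M90. The absence of falls depended on the scaling. With upper-quartile scaling 28 rose and 1 fell in H10, 29 and none in H90, 30 and 3 in M10, and 35 and 1 in M90, and with the raw library size as the only scaling the counts were 28 and 1, 29 and none, 29 and 5, and 34 and 1. The gene that fell was Hadh in H10 and Echs1 in M90.

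Of the 37 genes, 27 rose in all 4 mixtures, against 9.39% of all tested genes. In 28 of the 37, every one of the 12 treated libraries lay above all 3 vehicle libraries, which held for 11.2% of all tested genes, while 11.8% of them lay below. The 9 whose treated and vehicle libraries overlapped were Pex11a, Acadm, Acads, Hadh, Etfa, Eci1, Echs1, Amacr and Acsl1. M90 gave the highest log2 change for 31 genes. M10 gave the highest for Hsd17b4, Pecr, Acadl, Crat and Acsl5. Echs1 was highest in H10, at a value that did not pass the test.

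**Figure D1:**
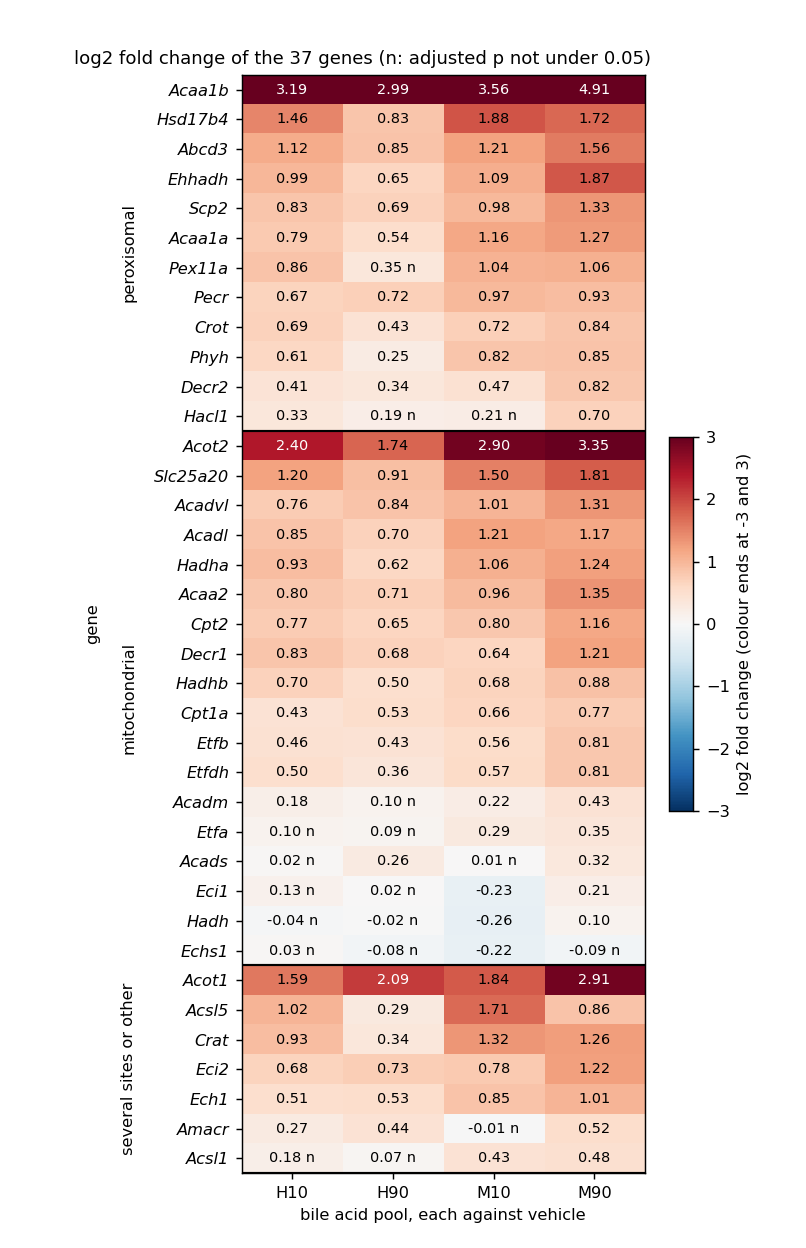
Each cell gives the log2 fold change of 1 gene (rows, grouped by the site of the protein and ordered by the mean of the 4 values) in 1 bile acid mixture against vehicle (columns). The colour runs from -3 (blue) to 3 (red), and n marks values whose adjusted p was not under 0.05. All 12 peroxisomal genes are above 0 in every column, with Acaa1b on top at 2.99 to 4.91. Hacl1 is near white in H90 and M10, at 0.19 and 0.21. Hadh, Eci1 and Echs1 at the foot of the mitochondrial block are also near white, and slightly blue in M10.

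Entry into peroxisomes was represented by Abcd3, the membrane transporter that brings long and branched acyl-CoA and bile acid precursors into the organelle. Its level was 346, 351 and 349 CPM in the 3 vehicle libraries, 729, 802 and 741 in H10, 609, 657 and 614 in H90, 811, 774 and 828 in M10 and 993, 997 and 1094 in M90. Every treated library was above every vehicle library and the M90 libraries were above all others. The log2 fold changes were 1.12 in H10, 0.85 in H90, then 1.21 in M10 and 1.56 in M90, with the smallest effect at adjusted p = 3.3e-17 and a standard error of 0.046. Crot, which transfers medium chains to carnitine for export, rose in each mixture, with log2 changes from 0.43 in H90 to 0.84 in M90.

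Ehhadh and Hsd17b4 encode the peroxisomal bifunctional enzymes that hydrate and then oxidise the chain, the former mainly for straight chains and the latter also for branched chains and bile acid precursors. Ehhadh stood at 103, 104 and 106 CPM in vehicle, 205, 231 and 185 in H10, 172, 164 and 152 in H90, 205, 216 and 242 in M10 and 334, 362 and 444 in M90. M90 was clear of every other group, and the H10 and M10 libraries overlapped. Its log2 fold changes were 0.99 in H10, 0.65 in H90, then 1.09 in M10 and 1.87 in M90, the last with a standard error of 0.11 and adjusted p = 2.3e-09. Hsd17b4 stood at 225, 231 and 219.9 CPM in vehicle, 595, 659.9 and 611 in H10, 400.0, 422 and 383 in H90, 782, 835 and 871 in M10 and 687, 744 and 790.3 in M90. Here the order differed, with M10 highest, M90 just below and partly overlapping, and H90 the lowest of the 4. The log2 fold changes of Hsd17b4 were 1.46 in H10, 0.83 in H90, then 1.88 in M10 and 1.72 in M90, each with a standard error of 0.051 to 0.052.

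The last step of the peroxisomal round is the thiolase, encoded in the mouse by Acaa1a (chr9:119339676-119350299, plus strand) and Acaa1b (chr9:119148023-119157093, minus strand), coordinates being those of GENCODE vM21 on GRCm38. Acaa1b showed the highest fold change of the 37 genes. It stood at 10.4, 12.3 and 12.7 CPM in vehicle, 99.5, 115 and 111 in H10, 86.5, 102 and 95.7 in H90, 132, 133 and 157 in M10 and 320.0, 369 and 380.3 in M90. H10 and H90 overlapped, M10 lay above both and M90 lay far above M10. Log2 fold changes were 3.19 in H10, 2.99 in H90, then 3.56 in M10 and 4.91 in M90, and the last is a 29.97-fold rise with a 95% interval of 4.71 to 5.103 on the log2 scale and adjusted p = 2.7e-24. Acaa1a was the more abundant of the pair in vehicle, at 124, 125 and 139 CPM, and rose by less, with log2 changes of 0.79 in H10, 0.54 in H90, then 1.16 in M10 and 1.27 in M90. In M90 the pair stood close together, at 290.3 to 340.0 CPM for Acaa1a and 320.0 to 380.3 CPM for Acaa1b. The transcripts of this pair are 96.6% identical over 1428 aligned bases, differ at 48 of them and share an identical run of 327 bases, and the treatment of reads that match both was not given. The split of counts between Acaa1a and Acaa1b is therefore uncertain.

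Scp2 gives rise to the thiolase for branched chains and bile acid precursors as well as to a sterol carrier protein. It rose from 141 to 144 CPM in vehicle to 324 to 385 CPM in M90, and its log2 changes were 0.83 in H10, 0.69 in H90, then 0.98 in M10 and 1.33 in M90. Pex11a, a membrane protein that promotes division of peroxisomes, had few counts, at 13.5 to 17.5 CPM in vehicle. It rose in H10, M10 and M90 by 0.86, 1.04 and 1.06, and in H90 the change was 0.35 with adjusted p = 0.058. The H90 libraries of Pex11a were 22.6, 21.2 and 14.3 CPM, so that library c lay inside the vehicle range, and without it the H90 change was 0.51 with adjusted p = 0.0034. With library set as a term the H90 change of Pex11a was 0.55 with adjusted p = 0.0424.

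Phyh and Hacl1 work in alpha-oxidation, the removal of one carbon from phytanic acid and like chains. Phyh rose in all 4 mixtures, by 0.61 in H10, 0.25 in H90, then 0.82 in M10 and 0.85 in M90. Hacl1 was among the peroxisomal genes with the lowest mean change. Its levels were 17.1, 18.6 and 18.6 CPM in vehicle, 20.04, 25.1 and 23.2 in H10, 21.1, 19.5 and 21.7 in H90, 19.5, 24.1 and 19.5 in M10 and 27.9, 27.9 and 32.4 in M90. It rose in H10 and M90, by 0.33 and 0.70, and missed the threshold in H90 (0.19, 95% interval -0.05 to 0.44) and M10 (0.21, 95% interval -0.025 to 0.45). The call for Hacl1 in H10 was lost without vehicle a, H10 b or H10 c, with adjusted p of 0.0762, 0.123 and 0.0590, and with upper-quartile scaling (0.27, adjusted p = 0.0539).

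Decr2 and Pecr are reductases that deal with double bonds in peroxisomes. Decr2 stood at 50.7, 45.7 and 48.7 CPM in vehicle, 60.8, 61.1 and 70.5 in H10, 56.1, 65.9 and 61.2 in H90, 69.8, 73.9 and 56.3 in M10 and 75.7, 92.4 and 87.3 in M90. Its treated libraries were all above vehicle, and its log2 changes were 0.41 in H10, 0.34 in H90, then 0.47 in M10 and 0.82 in M90. Pecr, the least abundant of the 37 genes per length in vehicle, stood there at 5.24 to 6.92 CPM and rose by 0.67 in H10, 0.72 in H90, then 0.97 in M10 and 0.93 in M90. With library set as a term, Decr2 did not pass in H90 (0.22, adjusted p = 0.349, and 0.27 with adjusted p = 0.0614 without H90 b) or M10 (0.29, adjusted p = 0.151), Pecr did not pass in H90 (0.59, adjusted p = 0.113) or M90 (0.74, adjusted p = 0.0561), and Phyh did not pass in H90 (0.16, adjusted p = 0.217).

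Among mitochondrial genes the carnitine shuttle rose in every mixture. Cpt1a joins the long chain to carnitine at the outer membrane, Slc25a20 carries the acylcarnitine across the inner membrane, and Cpt2 returns the chain to coenzyme A. Slc25a20 had the second highest mean change of the mitochondrial genes. It stood at 119, 126 and 125 CPM in vehicle, 275, 312 and 266 in H10, 232, 240.1 and 222 in H90, 335, 354 and 359.8 in M10 and 399, 434 and 465 in M90. The 5 groups did not overlap with each other, H90 being the lowest treated group and M90 the highest, and the log2 changes were 1.202 in H10, 0.91 in H90, then 1.501 in M10 and 1.81 in M90. Cpt2 rose by 0.77 in H10, 0.65 in H90, then 0.80 in M10 and 1.16 in M90. Cpt1a, the step known as rate-limiting, rose by less, with changes of 0.43 in H10, 0.53 in H90, then 0.66 in M10 and 0.77 in M90.

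PPARα binds DNA with its partner RXR at a direct repeat of AGGTCA spaced by a single base, AGGTCANAGGTCA, and the 37 genes were searched for it because so many of them rose together. RefSeq windows of 300 bases (250 before to 50 after the gene's start, GRCm38.p6) were at hand for 32 of the 37, and both strands were searched. No window held the motif with 0 or 1 mismatch at its 12 fixed bases. With up to 2 mismatches it was found in 3 of these 32 genes, and in 4.40% of the 27025 genes with a window. All 3 belong to mitochondrial genes, Slc25a20, Etfa and Echs1, of which the first rose strongly and the other pair changed little. They are shown because the same kind of match stands at a gene that rose strongly and at genes that changed little, with capitals marking the matched bases and lower case the 8 bases on either side, each on the strand of its gene.
Slc25a20, chr9:108662134-108662162, plus strand: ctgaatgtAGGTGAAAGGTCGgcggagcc
Etfa, chr9:55512300-55512328, minus strand: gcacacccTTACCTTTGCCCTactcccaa
Echs1, chr7:140116484-140116512, minus strand: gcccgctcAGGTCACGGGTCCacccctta
Counted from 1 at the 5′ end of the motif, the Slc25a20 match has the substitutions C5G and A13G and lies 7 to 19 bases after the start. The Etfa match reads on the opposite strand of the gene, has T4G and C12A, and lies 65 to 77 bases before the start. The Echs1 match has A8G and A13C and lies 71 to 83 bases before the start. A match of letters is a description of the sequence, and no binding was measured.

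Inside the mitochondrion Acadvl and Acadl carry out the first oxidation of long chains. Acadvl stood at 178, 184 and 184 CPM in vehicle, 306, 321 and 299 in H10, 309.8, 336 and 335 in H90, 356, 373 and 372 in M10 and 429, 451 and 477 in M90. H10 and H90 overlapped, M10 and M90 lay above them in turn, and the log2 changes were 0.76 in H10, 0.84 in H90, then 1.01 in M10 and 1.31 in M90. Acadl stood at 159, 173 and 169.6 CPM in vehicle, 296, 310.2 and 296 in H10, 264, 291 and 262 in H90, 392, 374 and 397 in M10 and 347, 374 and 407 in M90. Both mouse-modelled mixtures lay above both human-modelled ones for Acadl, with changes of 0.85 in H10, 0.70 in H90, then 1.21 in M10 and 1.17 in M90.

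Hadha and Hadhb encode the subunits of the trifunctional protein, which takes long chains through the remaining steps of the round. Hadha (chr5:30118304-30155162, minus strand) rose from 509 to 541 CPM in vehicle to 1206 to 1306 CPM in M90, and Hadhb (chr5:30155248-30184593, plus strand) from 189 to 197 to 332 to 379. The changes were 0.93 in H10, 0.62 in H90, then 1.06 in M10 and 1.24 in M90 for Hadha. For Hadhb they were 0.70 in H10, 0.50 in H90, then 0.68 in M10 and 0.88 in M90. The genes lie head to head with 85 bases between their starts in the annotation, and that stretch is shown because it lies before both genes and both rose. It is given on the plus strand of GRCm38, with capitals on each GGGCGG, the GC box.
Between Hadha and Hadhb, chr5:30155163-30155247: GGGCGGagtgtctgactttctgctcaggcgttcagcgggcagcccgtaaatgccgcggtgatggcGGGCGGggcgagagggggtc
The stretch holds 2 GC boxes and 9 CpG sites and is 69.4% G and C, and a GC box on either strand is present in the windows of 38.2% of genes. Acaa2, the mitochondrial thiolase, rose by 0.80 in H10, 0.71 in H90, then 0.96 in M10 and 1.35 in M90.

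Acadm and Acads begin the round on medium and short chains. Acadm, the medium-chain dehydrogenase, rose in H10, M10 and M90, by 0.18, 0.22 and 0.43, and its change in H90 was 0.10 (adjusted p = 0.19). With the raw library size as the only scaling, the M10 change of Acadm turned to -0.042 (adjusted p = 0.495), and with library set as a term it was 0.13 (adjusted p = 0.277). Upper-quartile scaling ended the calls of Acadm in H10 (0.12, adjusted p = 0.0584) and M10 (0.092, adjusted p = 0.132). Acads, the short-chain dehydrogenase, rose in the mixtures with 90% of 12α-hydroxylated bile acids, by 0.26 in H90 and 0.32 in M90. In H10 and M10 the changes of Acads were 0.024 (95% interval -0.09 to 0.14) and 0.0079 (95% interval -0.11 to 0.12), and library size alone turned the M10 change of Acads to -0.26, a fall that passed (adjusted p = 0.000139).

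Hadh, which oxidises short and medium 3-hydroxyacyl chains, was the most abundant of the 37 genes per length in vehicle, at 486 ± 11.9 counts per kilobase on the CPM scale (RPKM, mean ± SD, n = 3), and the next was Etfb at 155 ± 4.17. Its CPM values were 845, 882 and 881 in vehicle, 848, 848 and 839 in H10, 836, 863 and 874 in H90, 676, 739.6 and 769.8 in M10 and 936, 923 and 942 in M90. The M10 libraries were below and the M90 libraries above all others. Hadh fell in M10 by 0.26 (standard error 0.042, adjusted p = 1.9e-06) and rose in M90 by 0.10 (adjusted p = 0.037), while H10 and H90 gave -0.041 and -0.02 and did not pass. In H10 Hadh passed as lower with upper-quartile scaling (-0.0996, adjusted p = 0.0477) and with library size alone (-0.17, adjusted p = 0.000644). The rise in M90 was lost with upper-quartile scaling (0.057, adjusted p = 0.258), with library set as a term (0.049, adjusted p = 0.670) and without vehicle a (0.087, adjusted p = 0.131) or any of the M90 libraries, and library size alone gave -0.048 (adjusted p = 0.333).

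Echs1, the short-chain enoyl-CoA hydratase, and Eci1, the isomerase that moves double bonds into place, were also lower in M10. Eci1 stood at 95.7, 93.1 and 92.5 CPM in vehicle, 102, 103 and 102 in H10, 95.8, 97.1 and 92.4 in H90, 77.6, 79.1 and 82.8 in M10 and 93.5, 115 and 116 in M90. Its M10 libraries were below all others, and in M90 library a lay with vehicle while b and c lay above. Eci1 fell in M10 by 0.23 (adjusted p = 0.0026) and rose in M90 by 0.21 (adjusted p = 0.0072). Echs1 stood at 106, 104 and 111 CPM in vehicle, 109, 108 and 111 in H10, 101, 104 and 101 in H90, 92.0, 87.0 and 97.6 in M10 and 98.9, 102 and 102 in M90. Echs1 fell in M10 by 0.22 (adjusted p = 0.0012), and its change in M90 was -0.091 (95% interval -0.21 to 0.026). In M90 Echs1 passed as lower with upper-quartile scaling (-0.14, adjusted p = 0.0449) and with library size alone (-0.24, adjusted p = 0.000555). A term for library set gave M10 changes of -0.22 for Eci1 (adjusted p = 0.145) and -0.25 for Echs1 (adjusted p = 0.0557), and the M90 rise of Eci1 was lost without M90 b (adjusted p = 0.0699), without M90 c (adjusted p = 0.0740) or with the set term (0.22, adjusted p = 0.165), and with library size alone it was 0.059 (adjusted p = 0.474).

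Decr1, the mitochondrial dienoyl-CoA reductase, needed for polyunsaturated chains, rose in each mixture. It stood at 92.2, 96.8 and 100.4 CPM in vehicle, 170.2, 179.8 and 167 in H10, 152, 157 and 156 in H90, 148, 146 and 157 in M10 and 211, 218 and 239.6 in M90. The vehicle libraries lay below and the M90 libraries above all others, and the changes were 0.83 in H10, 0.68 in H90, then 0.64 in M10 and 1.21 in M90. Etfa and Etfb form the flavoprotein that takes electrons from the acyl-CoA dehydrogenases, and Etfdh passes them to ubiquinone. Etfb rose by 0.46 in H10, 0.43 in H90, then 0.56 in M10 and 0.81 in M90, and Etfdh by 0.50 in H10, 0.36 in H90, then 0.57 in M10 and 0.81 in M90. Etfa rose in M10 and M90, by 0.29 and 0.35, while H10 and H90 gave 0.098 (adjusted p = 0.11) and 0.091 (adjusted p = 0.22). With library size alone the M10 change of Etfa was 0.026 and did not pass (adjusted p = 0.667).

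Acot2, a mitochondrial thioesterase that frees fatty acids from coenzyme A, had the highest change of the mitochondrial genes. Its libraries stood at 12.1, 12.7 and 10.2 CPM in vehicle, 62.3, 72.5 and 50.5 in H10, 40.5, 38.01 and 38.3 in H90, 80.7, 86.2 and 96.1 in M10 and 116, 108 and 132 in M90. The groups did not overlap, and the log2 changes were 2.397 in H10, 1.74 in H90, then 2.904 in M10 and 3.35 in M90, the last a 10.2-fold rise with adjusted p = 1.8e-18. Acot1, its cytosolic relative, stood at 17.3, 16.5 and 19.3 CPM in vehicle, 50.8, 60.4 and 48.7 in H10, 79.1, 69.5 and 77.7 in H90, 59.4, 58.9 and 71.3 in M10 and 111, 137 and 149.9 in M90. Unlike Acot2, Acot1 was higher in H90 than in H10 in every library, with changes against vehicle of 1.59 in H10, 2.09 in H90, then 1.84 in M10 and 2.91 in M90. Acot2 (chr12:83987861-83993873, plus strand) and Acot1 (chr12:84009490-84018371, plus strand) are neighbours whose transcripts are 94.3% identical over 1330 aligned bases with an identical run of 273 bases, so the split of counts between them is uncertain too.

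The other genes with proteins at several sites include the synthetases that activate long chains. Acsl5 had the highest CPM of this group, though per length Ech1 stood above it in vehicle, at 144 against 110 RPKM. Acsl5 stood at 443, 486 and 469.6 CPM in vehicle, 935, 941 and 971 in H10, 542, 578 and 594 in H90, 1527, 1545 and 1495 in M10 and 868, 855 and 818 in M90. The 5 groups did not overlap, and both 10% mixtures lay above both 90% mixtures. Its log2 changes were 1.02 in H10, 0.29 in H90, then 1.71 in M10 and 0.86 in M90. Acsl1 stood at 61.1, 60.7 and 62.6 CPM in vehicle, 73.2, 67.6 and 67.8 in H10, 60.9, 73.2 and 58.9 in H90, 83.5, 79.4 and 86.0 in M10 and 81.6, 80.1 and 94.8 in M90. Acsl1 rose in M10 and M90, by 0.43 and 0.48, and did not pass in H10 (0.18, adjusted p = 0.052) or H90 (0.069, adjusted p = 0.59). The M10 call of Acsl1 was lost with library set as a term (0.31, adjusted p = 0.0646).

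Crat, which exchanges short acyl groups between carnitine and coenzyme A, stood at 71.3, 71.3 and 71.1 CPM in vehicle, 138, 137 and 133 in H10, 82.7, 93.7 and 95.1 in H90, 173, 184 and 176 in M10 and 156, 179 and 179 in M90. H90 lay between vehicle and the other mixtures, and the changes were 0.93 in H10, 0.34 in H90, then 1.32 in M10 and 1.26 in M90. M10 and M90 overlapped for Crat. Eci2, an isomerase for unsaturated chains, stood at 74.2, 74.9 and 72.8 CPM in vehicle, 112, 121 and 121 in H10, 118, 120.0 and 129.6 in H90, 124, 127 and 129 in M10 and 167, 169.8 and 181 in M90, with changes of 0.68 in H10, 0.73 in H90, then 0.78 in M10 and 1.22 in M90. All treated libraries of Eci2 were above vehicle and the M90 libraries above all others. Ech1, another isomerase of this kind, rose by 0.51 in H10, 0.53 in H90, then 0.85 in M10 and 1.01 in M90. Amacr, the racemase that readies branched chains and bile acid precursors for oxidation, stood at 21.7, 21.3 and 25.5 CPM in vehicle, 29.4, 27.2 and 26.1 in H10, 28.4, 31.99 and 32.6 in H90, 20.6, 24.2 and 23.1 in M10 and 31.2, 33.3 and 33.7 in M90. Amacr rose in H10, H90 and M90, by 0.27, 0.44 and 0.52, and in M10 the change was -0.012 (95% interval -0.23 to 0.20). The call for Amacr in H10 (adjusted p = 0.032) was lost without vehicle a, vehicle b, H10 a or H10 b, with adjusted p from 0.0614 to 0.146, and with upper-quartile scaling (0.21, adjusted p = 0.0942). With library size alone Amacr passed as lower in M10 (-0.28, adjusted p = 0.0216). With library set as a term, Crat (0.22, adjusted p = 0.102) and Amacr (0.31, adjusted p = 0.198) did not pass in H90, nor did Amacr in M90 (0.34, adjusted p = 0.172).

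**Figure D2:**
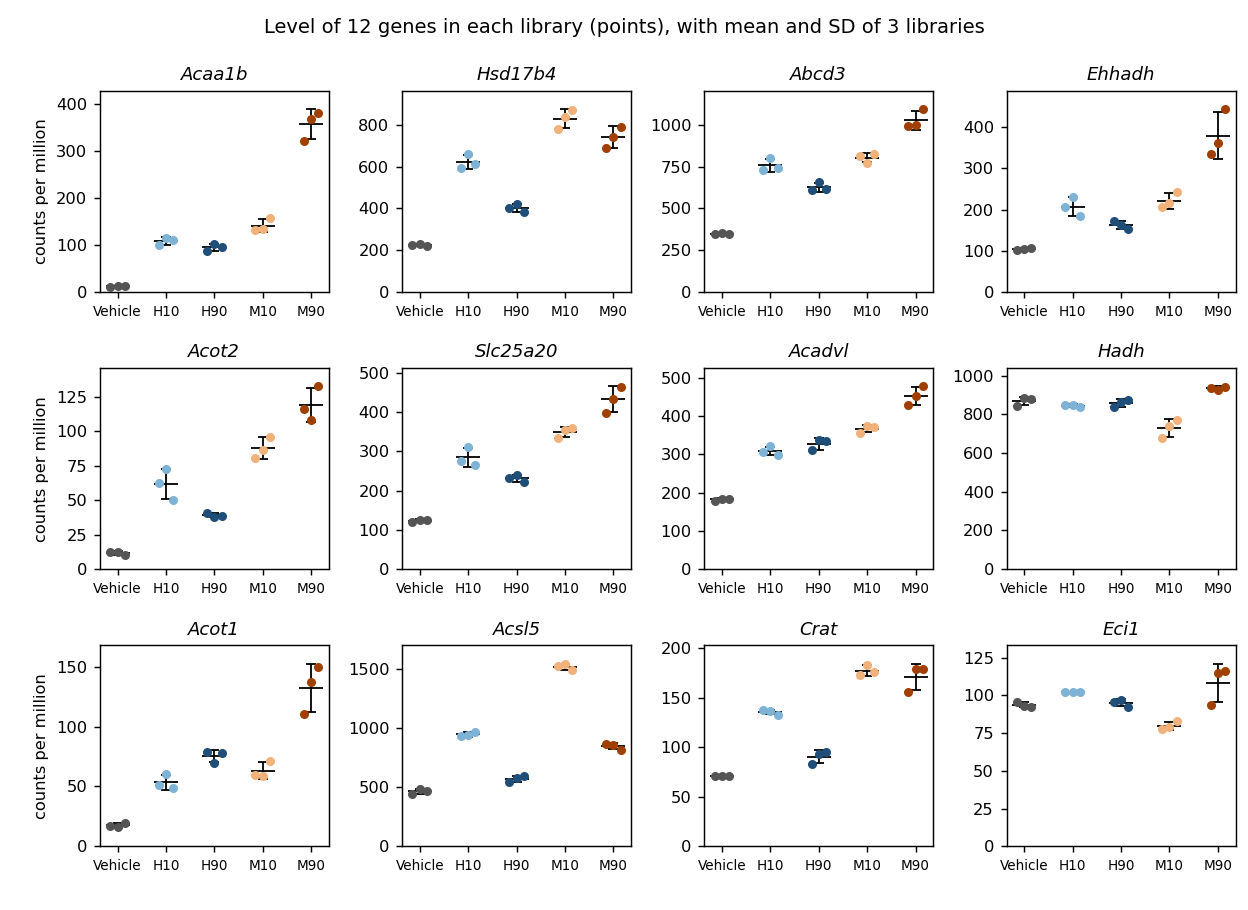
Points are the CPM of 12 of the genes in each library (a, b and c from left to right) of the 5 groups, on linear axes from 0, with the mean (dash) and SD (bars) of 3 libraries. M90 stands apart at the top for Acaa1b, Ehhadh and Acot2, M10 for Acsl5, and Hadh stays between 676 to 769.8 CPM in M10 and 923 to 942 CPM in M90.

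Peroxisomal and mitochondrial genes were compared next. Of the 12 peroxisomal genes, 12 rose in H10, 10 in H90, then 11 in M10 and 12 in M90, and none fell. Of the 18 mitochondrial genes, 13 rose in H10, 13 in H90, then 14 in M10 and 17 in M90, and 3 fell in M10. Among the other 7, 6 rose in H10, H90 and M10 each and 7 in M90. The median log2 change of the peroxisomal genes was 0.81 in H10, 0.59 in H90, then 1.01 in M10 and 1.16 in M90. The mitochondrial medians were 0.60, 0.52, 0.65 and 0.85 in the same order. Their gap was therefore 0.21 in H10, 0.077 in H90, then 0.36 in M10 and 0.32 in M90. Taken in each library against the mean of the vehicle libraries, the gap ran from 0.15 to 0.22 in H10, 0.0087 to 0.13 in H90, then 0.28 to 0.398 in M10 and 0.29 to 0.33 in M90. In vehicle it ran from -0.002 to 0.005, near 0 because the same libraries set the baseline. The pooled SD within groups was 0.045, made of 0.0035 in vehicle and 0.021 to 0.066 in the mixtures. With class means in place of medians, added after the data were seen, the gap was 0.38 in H10, 0.23 in H90, then 0.49 in M10 and 0.53 in M90. H90 had the smallest gap by either summary, while the order of M10 and M90 differed between them. No test was made of the gap, since the genes of a class are not replicates.

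The gap between the medians also depended on where the lines of the classes were drawn. Without the transporters, electron carriers and Pex11a, so that enzymes alone were compared, it was 0.0085 in H10, 0.018 in H90, then 0.31 in M10 and 0.079 in M90. With Eci2, Ech1 and Amacr counted as peroxisomal and Crat, Acsl1 and Acsl5 as mitochondrial it was -0.015 in H10 and 0.20 in M90. Only in M10 did it stay above 0.30 under both.

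Levels were also summed within each class. The 12 peroxisomal genes summed to 1277 ± 8.41 CPM in vehicle (mean ± SD, n = 3), 2653 ± 131 in H10, 2101 ± 85.3 in H90, then 3088 ± 115 in M10 and 3741 ± 260.0 in M90, which is 2.08, 1.65, 2.42 and 2.93 times the vehicle mean. The 18 mitochondrial genes summed to 3810 ± 21.6 CPM in vehicle, 5442 ± 200.0 in H10, 5082 ± 89.9 in H90, then 5764 ± 232 in M10 and 6844 ± 310.0 in M90, which is 1.43, 1.33, 1.51 and 1.80 times the vehicle mean. The ratio of the peroxisomal to the mitochondrial sum was 0.335 to 0.336 in the vehicle libraries, 0.475 to 0.494 in H10, 0.407 to 0.424 in H90, then 0.534 to 0.538 in M10 and 0.532 to 0.559 in M90. Each treated library was above each vehicle library, and among the mixtures M10 and M90 overlapped and the others did not. A sum is led by abundant genes, here Hsd17b4, Abcd3, Hadh and Hadha. Without these 4, a choice made after the data were seen, the ratio was 0.291 ± 0.0028 in vehicle, 0.354 ± 0.0067 in H10, 0.314 ± 0.0081 in H90, then 0.369 ± 0.0026 in M10 and 0.422 ± 0.010 in M90. With the wider classes of the preceding paragraph, applied to the ratio after the data were seen as were the enzymes alone, it was 0.353 ± 0.0017 in vehicle, 0.463 ± 0.011 in H10, 0.433 ± 0.0074 in H90, then 0.472 ± 0.0042 in M10 and 0.542 ± 0.014 in M90. With enzymes alone it was 0.286 ± 0.0020 in vehicle, 0.412 ± 0.010 in H10, 0.342 ± 0.0077 in H90, then 0.475 ± 0.0038 in M10 and 0.474 ± 0.017 in M90. The mean ratio was above vehicle in each mixture under each of these 4 choices. From low to high the means under these 4 ran H90, H10, M10 and M90, except for M10 and M90 with enzymes alone. In that case M10 and M90 were within 1 SD of each other, as they were with the classes as drawn. H10 and M10 were within 1 SD of each other with the wider classes, and their libraries overlapped. Without Acaa1b, also left out after the data were seen, M10 was above M90. The ratio was then 0.332 ± 0.00055 in vehicle, 0.467 ± 0.0097 in H10, 0.395 ± 0.0085 in H90, then 0.511 ± 0.0032 in M10 and 0.494 ± 0.011 in M90. The order of M10 and M90 thus depended on which genes were summed.

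**Figure D3:**
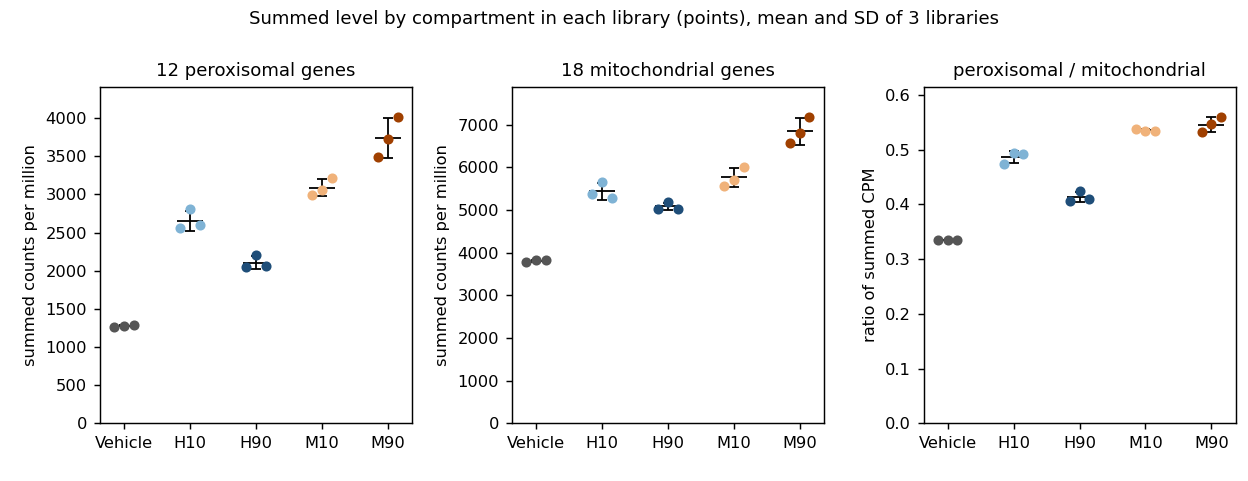
Points show the summed CPM of the 12 peroxisomal genes (left), of the 18 mitochondrial genes (middle) and the ratio of the sums (right) in each library of the 5 groups, with mean and SD of 3 libraries on axes from 0. The mean ratio is 0.335 for vehicle and, among the mixtures, 0.413 for H90, 0.487 for H10, 0.536 for M10 and 0.546 for M90.

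Per length, the order of the genes changed with treatment. In vehicle Hadh led, and Etfb, Ech1, Etfa and Hadha followed at 155 ± 4.17, 144 ± 1.39, 139 ± 5.96 and 131 ± 4.098 RPKM. Acaa1b stood at rank 33 of the 37 in vehicle with 6.98 ± 0.733 RPKM, and at rank 9 in M90 with 211 ± 18.9 RPKM. In M10 Acsl5 was second to Hadh, at 359 ± 6.02 against 407 ± 26.9 RPKM. In M90 the genes after Hadh were Acaa2 at 332 ± 23.4, Hadha at 309 ± 13.8, Abcd3 at 295 ± 16.4 and Ech1 at 289.7 ± 6.68 RPKM, each within the summed SDs of the next.

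The share of 12α-hydroxylated bile acids went with different changes in the human-modelled and the mouse-modelled mixtures. In H90 against H10, 16 of the 37 genes were lower and 2 higher, with a median log2 change of -0.14, where 18.4% of all tested genes were lower and 18.2% higher. In M90 against M10, 25 were higher and 2 lower, with a median of 0.26, where 21.3% of all tested genes were higher and 20.0% lower. The difference between the share effects, tested as an interaction coded as the mouse-modelled minus the human-modelled effect, passed for 28 of the 37 genes, all 28 with a positive sign. Over all tested genes 7.85% passed with a positive and 6.92% with a negative sign, and the median interaction was 0.40 over the 37 genes against 0.0071 over all genes. With upper-quartile scaling 4 genes were higher and 11 lower in H90 against H10, and with library size alone 6 and 11. A library set term left 13 genes called in H90 against H10 and 24 in the interaction.

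By gene, 8 were lower in H90 than in H10 and higher in M90 than in M10, namely Ehhadh, Abcd3, Scp2, Hadha, Hadhb, Slc25a20, Decr1 and Acot2. For Acot2 the changes were -0.66 and 0.44, with an interaction of 1.101 (standard error 0.14, adjusted p = 5.3e-06). Ehhadh gave -0.35 and 0.78, with an interaction of 1.13 (adjusted p = 0.00014). The fall of Ehhadh in the human-modelled pair did not pass under upper-quartile scaling (adjusted p = 0.0530), with library set as a term (adjusted p = 0.230) or without H10 b (adjusted p = 0.0570), H90 b (adjusted p = 0.0526) or H90 c (adjusted p = 0.0903). Scp2, Acadl, Hadhb and Decr1 likewise lost the call in H90 against H10 under upper-quartile scaling and with library set as a term, and without H10 b.

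Acaa1b had the strongest interaction, 1.54 (standard error 0.11, adjusted p = 1.2e-10), made of 1.34 in M90 against M10 and -0.20 in H90 against H10, the latter with adjusted p = 0.051. That fall of Acaa1b passed in several other settings, among them limma-voom (adjusted p = 0.0426) and library set as a term (adjusted p = 0.0216). Decr1 had the highest share effect of the mitochondrial genes in the mouse-modelled pair, 0.57 with standard error 0.054. Acot1 and Acads were higher with the 90% share in both pairs. Acot1 gave 0.50 and 1.07, and Acads 0.24 and 0.31. Hsd17b4 and Acsl5 were lower with the 90% share in both pairs. Acsl5 gave -0.73 and -0.85, with an interaction of -0.11 that did not pass (95% interval -0.23 to 0.0081). Hsd17b4 gave -0.63 and -0.16, and the second overlapped between groups and was lost without M10 c (adjusted p = 0.0613), without M90 a (adjusted p = 0.0929) and under upper-quartile scaling (adjusted p = 0.210).

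A further 6 genes were lower in H90 than H10 with no call in the mouse-modelled pair, Acaa1a, Crot, Pex11a, Phyh, Acadl and Crat. Pex11a did not pass in this pair with library set as a term (-0.30, adjusted p = 0.225). Another 15 were higher in M90 than M10 with no call in the human-modelled pair, Acaa1b, Decr2, Hacl1, Acaa2, Acadm, Acadvl, Hadh, Cpt1a, Cpt2, Etfb, Etfdh, Eci1, Eci2, Ech1 and Amacr. Among these the call of Cpt1a, at 0.12 (adjusted p = 0.045), was lost without H10 a, M10 a, M10 b, M90 b or M90 c, with adjusted p from 0.0520 to 0.160, and that of Ech1 without M10 b (adjusted p = 0.0606). For Pecr, Etfa, Echs1 and Acsl1 neither pair passed. Upper-quartile scaling added rises in M90 against M10 for Acaa1a (0.19, adjusted p = 0.00641), Crot (0.20, adjusted p = 0.00159), Etfa (0.15, adjusted p = 0.0157) and Echs1 (0.21, adjusted p = 0.00337). Crot also passed with limma-voom (adjusted p = 0.0381) and DESeq2 (adjusted p = 0.0426). In H90 against H10 upper-quartile scaling added rises of Acadvl (0.13, adjusted p = 0.0239) and Cpt1a (0.15, adjusted p = 0.0124). The interaction did not pass for Pecr, Acadl, Acads, Cpt1a, Etfa, Ech1, Amacr, Acsl1 and Acsl5. By class, the median share effect was -0.26 for peroxisomal and -0.11 for mitochondrial genes in the human-modelled pair, and 0.24 and 0.28 in the mouse-modelled pair.

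**Figure D4:**
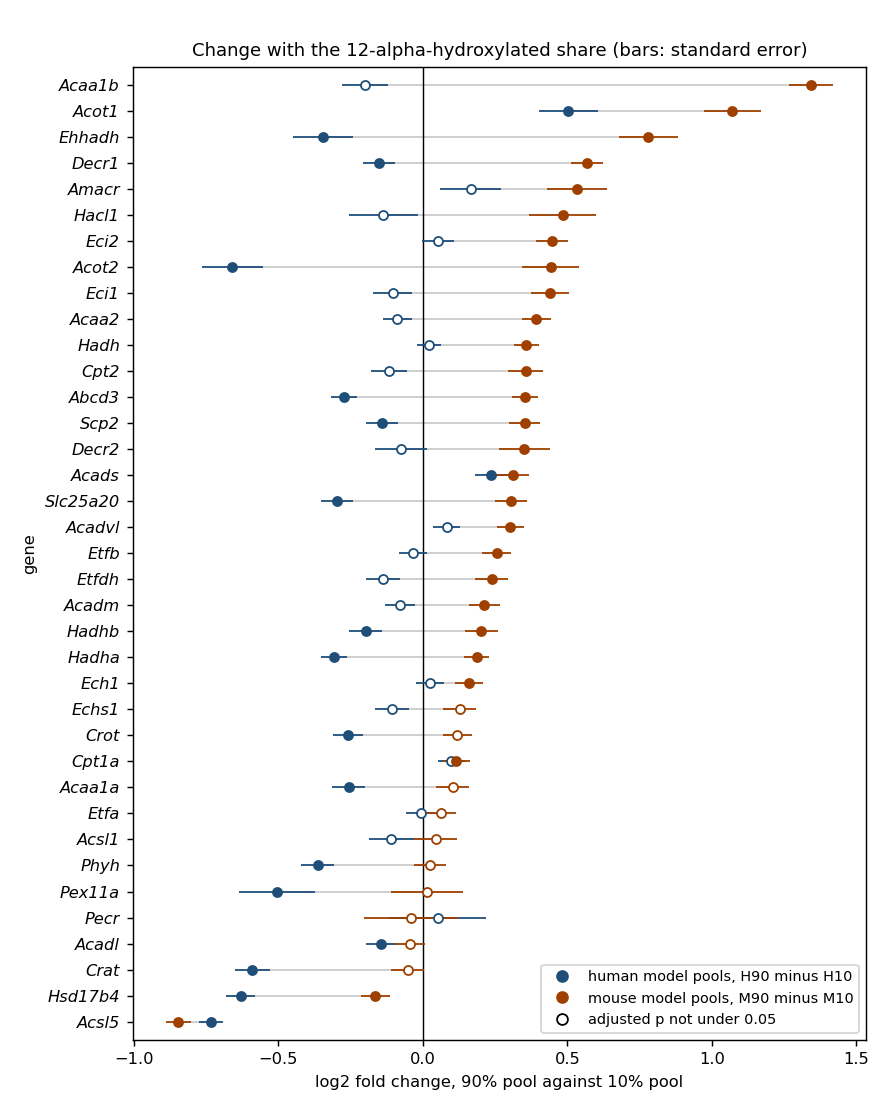
For each of the 37 genes (rows, ordered by the mouse-modelled value) the log2 fold change of the 90% over the 10% mixture is drawn for the human-modelled (blue) and mouse-modelled (brown) pair, with standard error bars and open circles where the adjusted p was not under 0.05. In 35 of the 37 rows the brown point lies to the right of the blue one, by as much as 1.54 for Acaa1b, and Acsl5 at the foot lies below 0 in both.

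At a share of 90% the mouse-modelled mixture gave higher levels than the human-modelled one for 33 of the 37 genes and lower levels for none, with a median log2 difference of 0.49, where 19.2% of all tested genes were higher and 19.5% lower. Acaa1b differed most among peroxisomal genes, by 1.92 (standard error 0.079, adjusted p = 2.0e-16). Acot2 differed most among mitochondrial genes, by 1.61 (adjusted p = 3.0e-12), and Crat among the rest, by 0.92 (adjusted p = 4.6e-15). The 4 genes that did not pass were Pecr at 0.21 (95% interval -0.13 to 0.55), Acads at 0.057 (95% interval -0.056 to 0.17), Echs1 at -0.016 (95% interval -0.13 to 0.10) and Amacr at 0.085 (95% interval -0.13 to 0.30). The rises of Hadh (0.12, adjusted p = 0.019) and Eci1 (0.19, adjusted p = 0.024) did not pass under upper-quartile scaling (adjusted p = 0.109 and 0.0781). Hadh did not pass without H90 a (adjusted p = 0.0771) or M90 c (adjusted p = 0.0539), nor Eci1 without H90 c (adjusted p = 0.0604), M90 b (adjusted p = 0.152) or M90 c (adjusted p = 0.160). The median difference was 0.67 over the peroxisomal and 0.41 over the mitochondrial genes.

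At a share of 10%, 22 of the 37 genes differed. In M10 against H10, 17 genes were higher and 5 lower, with a median of 0.15, where 18.2% of all tested genes were higher and 18.1% lower. Acsl5 differed most, by 0.68 (adjusted p = 1.6e-15), followed among mitochondrial genes by Acot2 at 0.51 and among peroxisomal genes by Hsd17b4 at 0.41. The 5 lower in M10 were Hadh at -0.21, Eci1 at -0.36, Echs1 at -0.25, Decr1 at -0.19 and Amacr at -0.28. This comparison sets one library set against the other, and with set as a term 9 of the 37 genes were called in place of 22. With library size as the only scaling 10 were higher and 7 lower, and Hadha turned from 0.13 to -0.0039. The calls of Scp2, Acaa2 and Hadha in this comparison were lost without H10 a, H10 c or M10 c, and that of Amacr without H10 a, H10 b or M10 a.

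Other genes of the same pathways were taken from lists by function. Of all 13159 tested genes, 24.0% rose and 24.5% fell in H10, and 11.7% and 9.86% in H90. In M10 31.2% rose and 33.3% fell, and in M90 26.2% and 28.5%. The counts of all lists below are to be read beside these shares. Of 31 tested genes of fatty acid oxidation, ketone synthesis and lipid handling outside the 37, 18 rose and 4 fell in H10, 15 and 3 in H90, 18 and 6 in M10, and 18 and 5 in M90. Acacb, the acetyl-CoA carboxylase of the mitochondrial surface, whose product inhibits Cpt1a, rose by 3.503 in H10, 3.94 in H90, then 4.46 in M10 and 5.103 in M90. Slc27a4, a fatty acid transport protein, rose by 0.64 in H10, 0.56 in H90, then 0.93 in M10 and 1.06 in M90. The 5 that fell in M90 were Acad9, Hsd17b10, Pcca, Pccb and Mut, by 0.88, 0.28, 0.31, 0.25 and 0.51. Pcca and Pccb encode the subunits of propionyl-CoA carboxylase, and Mut the mutase that acts on methylmalonyl-CoA further along the same route.

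Lists of genes that build or fill the organelles held rises and falls. Of 14 peroxins, the proteins that assemble peroxisomes, 5 rose and none fell in H10, 3 rose and none fell in H90, 4 rose and 4 fell in M10, and 5 rose and 2 fell in M90. The peroxin counts in M10 were near the shares over all tested genes. Pex19 rose in each, by 0.96 in H10, 0.63 in H90, then 0.87 in M10 and 1.19 in M90, followed in M90 by Pex16 at 0.83 and Pex13 at 0.46, while Pex7 fell there by 0.33. Of 17 other peroxisomal enzymes 9 rose and 7 fell in M90. Cat, which breaks down hydrogen peroxide, rose there by 1.004, Pxmp4 by 1.296 and Ephx2, an epoxide hydrolase, by 2.54. The ether lipid enzymes Far1, Agps and Gnpat fell in M90 by 1.62, 0.50 and 0.40, as did Hao2 by 3.54, Nudt19 by 0.49, Dao by 0.31 and Mpv17 by 0.27.

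Of 17 genes of the tricarboxylic acid cycle, 9 rose and 4 fell in H10, 5 and none in H90, 9 and 4 in M10, and 11 and 1 in M90. In M90 Cs and Ogdh rose by 0.61 and 0.60, and Suclg2 fell by 0.17. Of 13 genes of mitochondrial import and DNA maintenance 3 rose and 4 fell in H10, 1 and 2 in H90, 2 and 8 in M10, and 4 and 4 in M90. In H10, H90 and M90 these counts were near the shares over all tested genes. Tfam, which packages and transcribes mitochondrial DNA, fell by 0.86 in H10, 0.38 in H90, then 1.24 in M10 and 0.82 in M90. Polg, Polrmt and Tomm20 fell in M90 by 0.41, 0.21 and 0.26, while the channels Vdac1 and Vdac2 rose by 0.24 and 0.25.

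Among 12 regulators Ppara itself stood at 110.2, 105 and 103 CPM in vehicle, 175, 187 and 184 in H10, 165, 165 and 150.3 in H90, 154, 161 and 179.8 in M10 and 199, 210.4 and 228 in M90, above vehicle in all 12 treated libraries. Its changes were 0.78 in H10, 0.60 in H90, then 0.64 in M10 and 1.004 in M90. Nr1h4, the bile acid receptor FXR, rose in H10, M10 and M90, by 0.52, 0.62 and 0.45. Rxra, partner of both receptors, fell by 0.28 in H10, 0.15 in H90, then 0.42 in M10 and 0.31 in M90. Ppard fell in M90 by 0.20 and rose in H10 and M10 by 0.27 and 0.17.

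**Figure D5:**
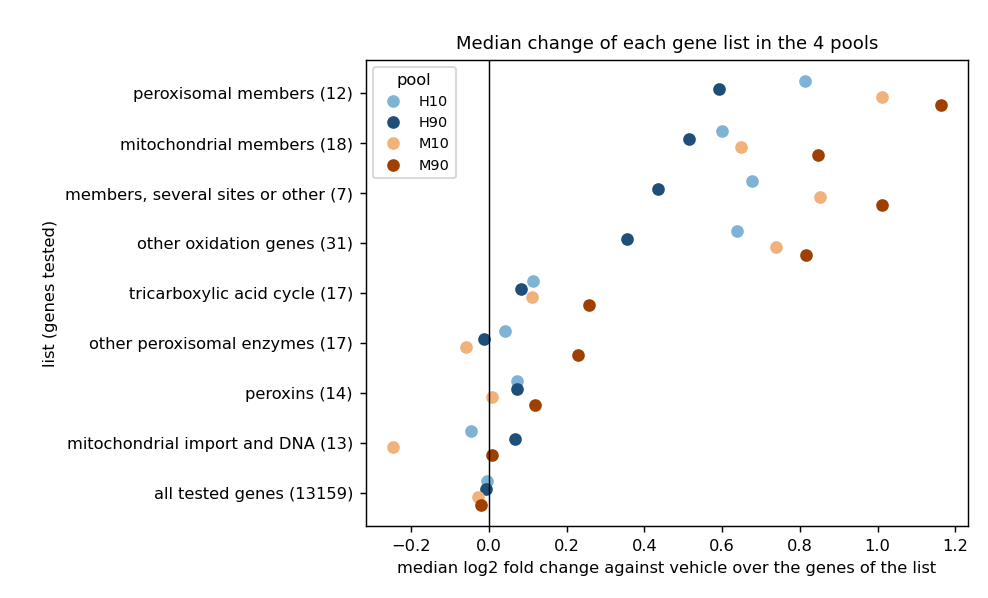
Each point is the median log2 fold change against vehicle over the tested genes of a list (rows, number of genes in brackets) in 1 of the 4 mixtures (colours). The classes of the 37 genes and the other oxidation genes lie between 0.35 and 1.16, whereas peroxins, other peroxisomal enzymes, the tricarboxylic acid cycle and mitochondrial import lie between -0.25 and 0.26.

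Markers of other features of the culture moved in the same libraries. All 10 proliferation markers fell in each mixture, with medians of -2.59 in H10, -0.59 in H90, then -5.21 in M10 and -2.60 in M90, and their summed level was 1060 to 1117 CPM in vehicle, 241 to 260.0 in H10, 701 to 830.1 in H90, then 112 to 120.0 in M10 and 234 to 249 in M90. Of 15 enterocyte markers 10 rose and 1 fell in H10, 3 rose and 6 fell in H90, 13 rose and 1 fell in M10, and 10 rose and 2 fell in M90. Their summed level was 12062 to 14465 CPM in vehicle, 23543 to 24201 in H10, 15932 to 17411 in H90, then 29705 to 30868 in M10 and 25581 to 27052 in M90. The 14 hepatocyte markers, of which Cps1 is also an intestinal gene, summed to 879 to 971 CPM in vehicle, 469 to 604 in H10, 550.2 to 804 in H90, then 234 to 254 in M10 and 297 to 345 in M90, and 11 of 14 fell in M10 and M90. The 9 fibroblast markers summed to 12.9 to 28.4 CPM over all libraries. The 7 muscle markers, nearly all of it Acta1 and with Ckm at 0, summed to 177 to 201 CPM in vehicle, 262 to 277 in H10, 114 to 138 in H90, then 565 to 644 in M10 and 406 to 444 in M90. The part of these shifts in the changes of the 37 genes was not tested.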

How the data were processed

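Poly-A RNA of 15 libraries was sequenced (TruSeq), and the authors deposited raw counts of reads per gene symbol. Per the submitters' processing notes they used bcl2fastq 2.17, STAR 2.5.2b and featureCounts 1.5.0-p3 on mm10/GRCm38. The annotation, the use of strand and the treatment of reads with several matches are not given in the sources used here. The members and lists were chosen with earlier results of these data known.

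Counts were tested in R 4.3.3 with edgeR 4.0.16 (TMM, filterByExpr, robust quasi-likelihood F-test) with 1 mean for each of the 5 groups and 10 residual degrees of freedom. P-values were adjusted by Benjamini-Hochberg over 13159 genes, with 0.05 as threshold. Standard errors are the log2 change over the root of F. CPM use TMM-scaled totals, and RPKM divide them by the longest principal transcript (GENCODE vM21). Counting error and the spread of 3 libraries limit precision, and total counts were 11245807 to 28989526.

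Values per library are given, within each class, for the 4 genes with the highest and the 2 with the lowest absolute mean change against vehicle, for those that fell against vehicle, and for the gene with the strongest change between mixtures. Of other lists, genes called against the majority and the 3 with the smallest adjusted p in M90 are named, with Ppara, and a few that the rule would name are not reported here. Library sets were split at 10 CPM of Mup20. Same-letter libraries of different groups had correlations of deviations between -0.030 and 0.091 over 30 pairs, none over 0.1, and letters were not treated as pairs. Alternatives were other scalings, filters, tools (limma-voom in limma 3.58.1, DESeq2 1.42.0), a set term, a replicate block, other classes and leaving out each library. Figures used matplotlib 3.10.9, and promoter windows and transcript alignments used RefSeq, GENCODE and Biopython 1.88.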

Additional observations from a re-analysis of the deposited data

Results flagged for a closer look

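For 28 of the 37 genes the effect of the 12α-hydroxylated share differed between the mouse-modelled and the human-modelled mixtures by a test of the difference itself (edgeR interaction term, adjusted p under 0.05), and in each the mouse-modelled effect was the higher. Each value below is the log2 change of M90 over M10 minus that of H90 over H10.

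Among peroxisomal genes the interaction was Acaa1b 1.54, Ehhadh 1.13, Abcd3 0.63, Hacl1 0.62, Pex11a 0.52, Scp2 0.49, Hsd17b4 0.47, Decr2 0.43, Phyh 0.39, Crot 0.38 and Acaa1a 0.36. Among mitochondrial genes it was Acot2 1.101, Decr1 0.72, Slc25a20 0.60, Eci1 0.55, Hadha 0.49, Acaa2 0.48, Cpt2 0.47, Hadhb 0.40, Etfdh 0.37, Hadh 0.34, Acadm 0.29, Etfb 0.29, Echs1 0.23 and Acadvl 0.22. Among genes of several sites it was Acot1 0.57, Crat 0.54 and Eci2 0.40. With the set term, Pex11a (0.32, adjusted p = 0.395), Hacl1 (0.60, adjusted p = 0.0537), Echs1 (0.25, adjusted p = 0.106) and Acot1 (0.50, adjusted p = 0.0779) did not pass. Leaving out a single library ended the call of Echs1 in 11 cases, of Pex11a in 8 cases (vehicle c, H10 b or c, H90 c, M10 a or c, M90 b or c), of Decr2 in 4 (H10 c, H90 a, M10 c, M90 b) and of Acadvl in 4 (H10 b, H90 a, M10 a, M90 c). Echs1 also did not pass with RLE scaling (adjusted p = 0.0507) or with no filter on low counts (adjusted p = 0.0685). Without robust shrinkage of the spread neither Echs1 (adjusted p = 0.0512) nor Pex11a (adjusted p = 0.0543) passed. The 3 vehicle libraries enter these effects only through steps run on all libraries, namely the filter, the scaling and the shared estimate of spread.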

How the results depend on the processing

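Counts of called genes stayed within 1.5 times of the reported count under every alternative run, except M10 against H10 with library set as a term (9 in place of 22). Without 1 library at a time they ran from 29 to 32 for H10, 28 to 30 for H90, 34 in each case for M10, 34 to 36 for M90, 14 to 21 for H90 against H10, 25 to 28 for M90 against M10, 18 to 23 for M10 against H10, 31 to 33 for M90 against H90 and 25 to 28 for the interaction. With the replicate block the counts were 31, 30, 34, 36, 19, 27, 23, 33 and 28 in the same order. The block brought in Pex11a in H90, Acaa1b in H90 against H10 and Acot1 in M10 against H10. The letters are not known to pair the samples.

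The peroxisomal minus mitochondrial median depended on the classes. With wider classes it was -0.0146 in H10 (reversed) and 0.113 in M90 against M10 (-0.043 with the classes as drawn), 0.311 in M10, 0.197 in M90, -0.0904 in H90 against H10, 0.0186 in M10 against H10 and 0.159 in M90 against H90. With enzymes only it was 0.00852 in H10, 0.0182 in H90, 0.307 in M10, 0.0786 in M90, 0.142 in M10 against H10 and 0.201 in M90 against H90. With class means it was 0.383 in H10, 0.232 in H90, 0.49 in M10, 0.532 in M90 and 0.0417 in M90 against M10. With library set as a term it was 0.0193 in H90, 0.305 in M10 and 0.034 in M10 against H10. Without 1 library it ran from 0.15 (without vehicle a) to 0.255 in H10, 0.0394 (without H90 c) to 0.115 (without vehicle c) in H90, 0.243 (without vehicle a) to 0.359 in M90, -0.0974 (without M10 c) to -0.0264 in M90 against M10, 0.0562 to 0.129 (without M10 c) in M10 against H10 and 0.207 (without H90 c) to 0.281 in M90 against H90. Other class choices change which genes enter. For the other shifts the cause was not tested.

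Library size as the only scaling moved the median of all genes by -0.13 in H10, -0.26 in M10, -0.15 in M90, 0.11 in M90 against M10, -0.13 in M10 against H10 and -0.11 in M90 against H90, and upper-quartile scaling by -0.13 in M10. With library size alone the 37 genes had medians of 0.57 in H10, 0.56 in M10 and 0.86 in M90. It reversed Acadm in M10 (-0.0421), Hadh in M90 (-0.0478) and Hadha in M10 against H10 (-0.00394), and none of these passed. Acads (-0.256) turned, and passed as lower, in M10. The smallest changes, such as that of Hadh in M90, are not separated from such shifts.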
